A study of Mus musculus with 24 samples.

Results

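The motor cortex contralateral to the trained forelimb was compared with the motor cortex ipsilateral to it in the same mice. The comparison takes 8 of the 24 libraries of the series: 4 pools of trained mice, each with 1 contralateral and 1 ipsilateral library, paired by pool. After filtering these held 35310 cells, of which 11527 were glutamatergic neurons (at least 1 unique molecular identifier, UMI, of Slc17a7 and none of Gad1 or Gad2; 5656 contralateral and 5871 ipsilateral) and 3893 were GABAergic neurons (at least 1 UMI of Gad1 or Gad2 and none of Slc17a7; 1727 and 2166).

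All mice carried Fos-CreER::Ai9, in which Cre from the Fos locus and a dose of 4-hydroxytamoxifen (4-OHT) switch on a red reporter in cells active around the dose. Early pools had trained on a forelimb reaching task for 2 days and late pools for 8 days, with 2 pools per stage. Each pool joined the tissue of 2 mice, 1 labelled M and 1 labelled F, separately for each hemisphere. No sorting step is named in the labels, and labelled and unlabelled cells stand together in each library. The untrained controls were 2 further pools that received 4-OHT, with right and left libraries. The trained limb's side is not given in the sources used here, so right and left in the controls cannot be matched to contralateral and ipsilateral. Tissue was taken 3 days after labelling, cut in slices, digested with papain and depleted of dead cells, which limits the data to neurons that survive dissociation.

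The descending output of motor cortex crosses the midline, so each hemisphere mainly drives the opposite limb. Upper-layer and layer 4/5 intratelencephalic neurons, marked by Cux2 and Rorb, connect cortical areas and the 2 hemispheres. Fezf2 marks the deep projection neurons that send axons to brainstem and spinal cord, Foxp2 marks corticothalamic neurons of layer 6, and Tshz2 marks near-projecting neurons, deep-layer cells with only local axons. Pvalb, Sst and Vip mark the main classes of cortical inhibitory interneurons, which act respectively near the soma, on distal dendrites and on other interneurons.

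The labelled tissue was checked against its defining markers. Of the glutamatergic neurons of the trained pools, 67.4% held a UMI of Neurod2, 57.1% of Tbr1, 85.2% of Camk2a and 94.9% of Nrgn, all markers of cortical excitatory neurons, and 0.399% held the inhibitory transporter Slc32a1. The GABAergic neurons held Slc32a1 in 69.2%, Dlx1 in 48.3%, Adarb2 in 59.1% and Lhx6 in 9.71%, and Neurod2 in 1.08%. Lhx6 belongs to the Pvalb and Sst lineage and Adarb2 to the Vip and Lamp5 lineage, so by these markers the inhibitory cells recovered were mostly of the second lineage. Total UMIs per library lay between 16801721 and 29350160 and kept cells between 3420 and 6512. Median UMIs per glutamatergic neuron ranged from 4583 to 12244.5 over libraries, and the hemispheres of a pool differed in depth: they were higher contralaterally in early pool 2 (6163 against 4583) and late pool 2 (7476 against 6391), lower in late pool 1 (7351 against 8658) and nearly equal in early pool 1 (12171 against 12244.5). The 2 libraries of late pool 1 shared 96 cell barcodes (1.14%), against 3 to 8 in the other trained pairs. They also shared 92 (1.31%, contralateral) and 68 (0.968%, ipsilateral) with untrained pool 1 right, and 8 (1.48%) and 5 (0.924%) with untrained pool 1 left. Late pool 1 and untrained pool 1 carry the same batch label. With libraries of other batch labels those of late pool 1 shared 0 to 3 barcodes each. The number of shared barcodes that chance alone would give was not computed, and the cause was not tested. Labels call the hemispheres of a pool separate samples of the same mice, so n counts pools.

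The untrained pairs have a fault that limits them as a background. In untrained pool 2, 94.0% of right glutamatergic neurons held Xist without a Y-linked UMI and none of 2139 left ones did, which allows a share of up to 0.140%. In untrained pool 1, Xist-only cells made up 0.0492% on the right and 0 of 229 cells on the left. The right and left libraries of untrained pool 2 therefore did not hold the same mice, and untrained pool 1 held no mixture of M and F, against the labels. Untrained pool 1 left had only 467 kept cells. All 8 trained libraries held cells of both kinds, with Xist-only cells between 17.1% and 50.3% of glutamatergic neurons. The mix of the 2 mice was not made equal between the hemispheres of a pool. Control values are given below for the libraries as labelled.

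Among the layer markers, the share of glutamatergic neurons with Rorb was higher in the contralateral library of all 4 pools. Rorb, a nuclear receptor of layer 4 and layer 5 intratelencephalic neurons, was found contralaterally in 27.2% of cells in early pool 1, 27.6% in early pool 2, 28.4% in late pool 1 and 25.02% in late pool 2. The ipsilateral shares were 25.4%, 21.2%, 26.1% and 21.4% in the same order. The groups overlapped across pools, since the lowest contralateral share lay below the highest ipsilateral ones, while within each pool the contralateral share was the higher. The mean was 27.0% ± 1.44 (SD, n = 4) contralaterally and 23.5% ± 2.60 ipsilaterally, a paired difference of 3.53 ± 2.08 percentage points. An exact two-sided sign-flip permutation test over the 4 pools gave p = 0.125, the smallest it can give, and 0.438 after adjustment over the 7 markers. With 4 pairs no share can pass this test, so direction and size are what the design gives.

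Cux2, a transcription factor of upper-layer neurons, was also found in more contralateral cells in all 4 pools. Its shares were 27.4%, 26.3%, 24.9% and 20.7% contralaterally and 26.6%, 21.2%, 22.9% and 20.0% ipsilaterally, for early pools 1 and 2 and late pools 1 and 2. The difference was 2.14 ± 2.05 points (exact permutation p = 0.125, adjusted 0.438), the mean of 0.739, 5.08, 1.98 and 0.747 points in the single pools. The contralateral library was the deeper one in early pool 2, which had the largest of these 4 differences, and in late pool 2. Cells with at least 2000 UMIs were also thinned to 2000 UMIs, and cells below that depth were left out. Cux2 was then higher contralaterally in 2 of 4 pools (11.3% against 10.3%), while Rorb stayed higher in 4 of 4 (15.3% against 13.4%, differences of 0.271 to 4.28 points). In microglia-marked cells, which should lack both genes, the shares were 0.840% and 0.949% for Cux2 and 0.530% and 0.331% for Rorb (contralateral, ipsilateral), at a median of 1854 UMIs per cell against 6884 in glutamatergic neurons. These are far below the neuronal shares.

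The deep-layer markers had no common direction. Fezf2, the determinant of subcerebral projection neurons, was found in 31.3%, 20.9%, 25.2% and 30.3% of contralateral cells and 33.9%, 17.1%, 31.0% and 26.7% of ipsilateral cells. It was higher contralaterally in 2 of 4 pools, with a difference of -0.266 ± 4.70 points. Foxp2, of layer 6 corticothalamic neurons, was found in 22.3% ± 3.16 and 23.4% ± 3.84, a difference of -1.14 ± 3.50 points (exact permutation p = 0.625, adjusted 0.729). Thinning to 2000 UMIs gave Fezf2 10.1% contralaterally and 11.0% ipsilaterally, with differences of -1.53 to -0.384 points and all 4 pools lower. For this marker the direction in single pools thus changed with thinning, which also leaves out cells under 2000 UMIs. The cause was not tested.

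Untrained pools did not give a steady right-left value for any layer marker. Right minus left was -9.96 and 2.29 points for Cux2, -9.22 and 1.09 for Rorb, -8.34 and 9.89 for Fezf2 and -3.17 and 8.60 for Foxp2 in untrained pools 1 and 2. Each of these pairs changes sign between the pools. Median UMIs per glutamatergic neuron were 5542 right and 13710 left in untrained pool 1 and 12797.5 right and 8553 left in untrained pool 2, so the deeper library had the higher share for each marker. With cells of at least 2000 UMIs thinned to 2000 UMIs and the others left out, the values were -5.18 and 0.319 for Cux2, -3.69 and 0.151 for Rorb, -0.700 and 2.02 for Fezf2 and 3.38 and 1.64 for Foxp2, of which the last pair no longer changes sign. In absolute size the mean trained difference was below the larger of the 2 unthinned control values for all 4 markers. Signs cannot be compared, since right and left cannot be matched to contralateral and ipsilateral.

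**Figure D1:**
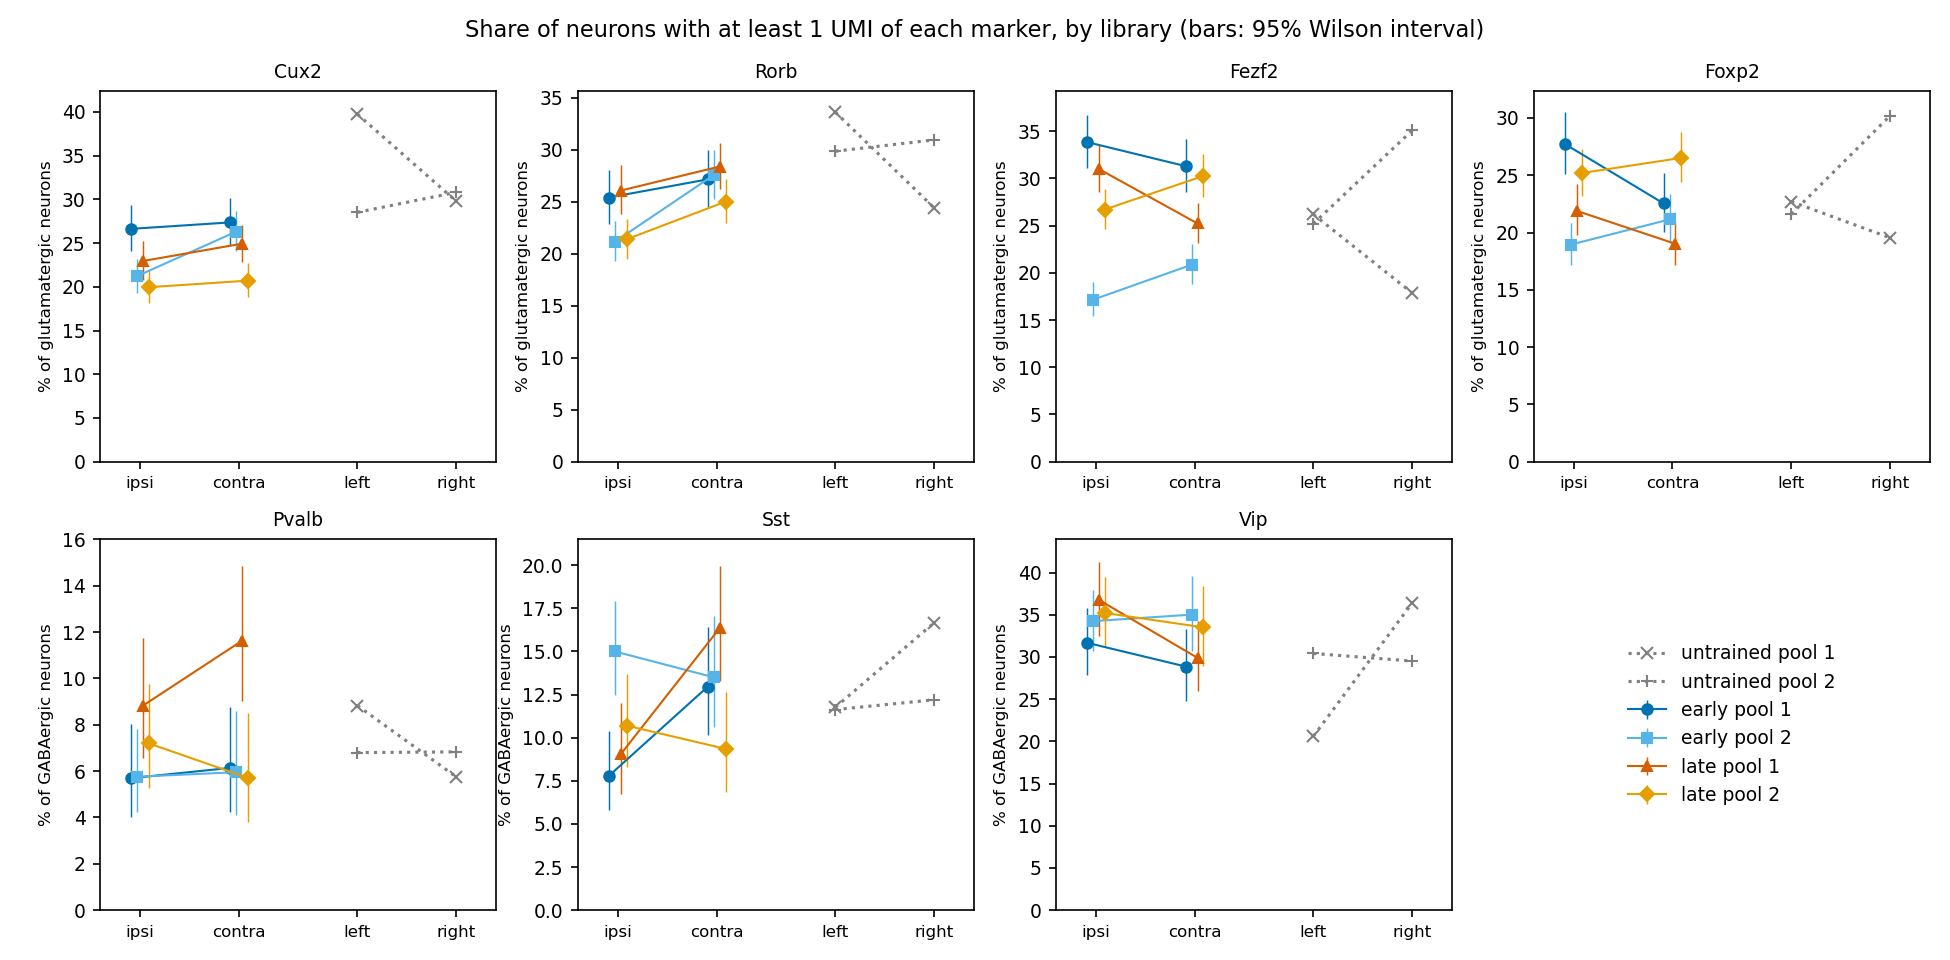
Share of neurons with at least 1 UMI of each of the 7 markers, in percent, for glutamatergic neurons (Cux2, Rorb, Fezf2, Foxp2) and GABAergic neurons (Pvalb, Sst, Vip). Lines join the ipsilateral and contralateral library of a trained pool and the left and right library of an untrained pool, and bars are 95% Wilson intervals for counting error. The Rorb and Cux2 lines rise in all 4 trained pools, and the untrained Rorb lines change by -9.22 and 1.09 points from left to right.

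Combinations of the 4 layer markers are described here without a test because they were chosen after the shares were seen. They were not thinned to equal depth. Cells with both Cux2 and Rorb and neither deep marker made up 11.4% of contralateral and 9.35% of ipsilateral glutamatergic neurons, higher in 4 of 4 pools by 0.309 to 4.53 points. Cells with Cux2 alone made up 12.3% on both sides, and cells with Rorb alone 10.5% and 9.84%. Cells with Fezf2 alone made up 9.40% and 10.3%, lower contralaterally in all 4 pools. Cells with none of the 4 made up 30.3% and 31.8%, which shows how many neurons a single UMI threshold leaves without a layer.

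Gene levels within glutamatergic neurons were compared on UMIs summed per library, with edgeR's quasi-likelihood test, the pool as a block and Benjamini-Hochberg adjustment over all genes. Levels are CPM, a gene's UMIs scaled to the same total of tested UMIs in every library with TMM factors, and differences are log2, contralateral minus ipsilateral. Of 16592 genes, 11 passed an adjusted p of 0.05 (0.0663%), 6 higher contralaterally (0.0362%) and 5 lower (0.0301%). At an unadjusted p of 0.05, 879 genes passed, and DESeq2 called 1 gene, Tshz2. Early pool 1 and late pools 1 and 2 decide much of this count: 1 gene was called without early pool 1, 27 without late pool 1 and 26 without late pool 2. In bulk sums such as these, fewer cells of a type and less RNA per cell cannot be told apart.

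The 5 genes lower contralaterally were Tshz2, Lypd1, Nxph1, Trp53i11 and Ctgf, and each was lower in all 4 pools, as were 6.82% of all genes. Tshz2 (ENSMUSG00000047907, protein-coding, chromosome 2 at 169633013 to 170071816, plus strand, GRCm38) encodes a zinc finger protein and is the usual marker of near-projecting neurons. Its contralateral levels were 114, 59.8, 94.3 and 90.5 CPM in early pools 1 and 2 and late pools 1 and 2, against 149.9, 80.5, 161 and 116 CPM ipsilaterally. The groups overlapped across pools, since pools differed in level, and within each pool the contralateral library was the lower one. The log2 difference was -0.49 (SE 0.0574, edgeR adjusted p = 0.00157), with -0.39, -0.43, -0.77 and -0.36 in the single pools. The call held when any 1 pool was left out (-0.54 to -0.39) and was lost when the 4 untrained libraries joined the fit (-0.49, edgeR adjusted p = 0.0555). Cells with Xist and cells with Y-linked UMIs separate the 2 mice of a pool, and Tshz2 was lower contralaterally in 7 of 8 mice (log2 -0.48, edgeR adjusted p = 0.0086). Here and below, counts per mouse split the same 2 libraries of a pool. The 8 mice are therefore not 8 independent pairs, and n remains the 4 pools.

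The lower Tshz2 sum came with fewer positive cells in each pool. In all, 471 contralateral and 573 ipsilateral cells held Tshz2, with 4293 and 5922 UMIs. Shares of glutamatergic neurons with a UMI were 11.3%, 6.57%, 7.92% and 8.38% contralaterally and 12.2%, 6.91%, 11.1% and 10.1% ipsilaterally, with differences of -3.14 to -0.343 points. UMIs per positive cell were 12.44, 6.17, 9.05 and 8.34 contralaterally and 15.31, 5.80, 12.63 and 7.76 ipsilaterally, lower contralaterally in both pools numbered 1 and higher in both pools numbered 2. Cells with 5 or more UMIs made up 5.15% ± 1.49 contralaterally and 6.46% ± 1.97 ipsilaterally, lower in all 4 pools. Among Fezf2-positive neurons 21.6% ± 2.22 held Tshz2 contralaterally and 25.4% ± 2.41 ipsilaterally, again lower in all 4 pools, with differences of -5.25 to -3.14 points. These shares were chosen after the values were seen and carry no test. The sides of the untrained pairs cannot be matched to contralateral and ipsilateral, and there Tshz2 was higher in the right libraries by 0.84 (SE 0.102, edgeR adjusted p = 0.0131). In untrained pool 1 left this rests on 178 UMIs in 24 cells, with 84.8% of them in the 5 highest cells. The right and left libraries of untrained pool 2 held different mice, so the p-value of this comparison does not measure side alone.

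Lypd1, a GPI-anchored modulator of nicotinic receptors that belongs to the near-projecting list used here, followed Tshz2. It is a protein-coding gene on chromosome 1 (125867622 to 125913101, minus strand). Its levels were 104.6, 89.1, 83.3 and 85.7 CPM contralaterally and 149, 92.3, 121 and 107 CPM ipsilaterally, a log2 difference of -0.37 (SE 0.061, edgeR adjusted p = 0.0341). All contralateral values except that of early pool 1 lay below every ipsilateral value. Nxph1, a secreted ligand of neurexins on chromosome 6 (8948431 to 9249032, plus strand), stood at 26.7, 16.6, 16.3 and 14.5 CPM contralaterally and 36.8, 18.2, 22.1 and 21.6 CPM ipsilaterally (log2 -0.42, SE 0.073, edgeR adjusted p = 0.0426). Cells that held Tshz2 carried 86.2% of the Nxph1 UMIs and 67.6% of the Lypd1 UMIs, so these 3 genes were largely read from the same cells. The Lypd1 call was lost without early pool 1 or late pool 1 (-0.31 in both, edgeR adjusted p = 0.602 and 0.0536), and the Nxph1 call without early pool 1, late pool 1 or late pool 2 (-0.42 to -0.37, edgeR adjusted p of 0.0709 to 0.664). With counts per mouse neither was called (edgeR adjusted p = 0.0822 for Lypd1 and 0.186 for Nxph1).

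Trp53i11, a p53-inducible gene on chromosome 2 (93187548 to 93201759, plus strand), was spread over more cells, with 23.7% of its UMIs in Tshz2-positive cells. Its levels were 57.2, 45.1, 49.5 and 48.8 CPM contralaterally and 71.7, 58.8, 60.5 and 56.8 CPM ipsilaterally, with overlap only through early pool 1 contralateral (log2 -0.30, SE 0.0485, edgeR adjusted p = 0.0253). Ctgf (ENSMUSG00000019997, chromosome 10 at 24595442 to 24598683, plus strand), a matricellular protein and marker of layer 6b, stood at 72.1, 95.2, 15.8 and 107 CPM contralaterally and 96.4, 113, 20.7 and 120.2 CPM ipsilaterally (log2 -0.29, SE 0.0503, edgeR adjusted p = 0.0426). Both late pool 1 libraries lay far below the other pools in Ctgf, and its contralateral library was the lower of the pair. Without early pool 1 or early pool 2 neither gene was called (edgeR adjusted p of 0.547 and 0.124 for Trp53i11, 0.750 and 0.140 for Ctgf), nor with counts per mouse (edgeR adjusted p = 0.295 for Trp53i11 and 0.648 for Ctgf). In Fezf2-positive cells Ctgf stood at -0.05 and was not called, and in Cux2-positive cells it was called in the opposite direction (1.67, edgeR adjusted p = 0.0425). In the untrained pairs Lypd1, Nxph1, Trp53i11 and Ctgf stood at 0.48, 0.40, 0.42 and -0.27, right minus left, and none passed.

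**Figure D2:**
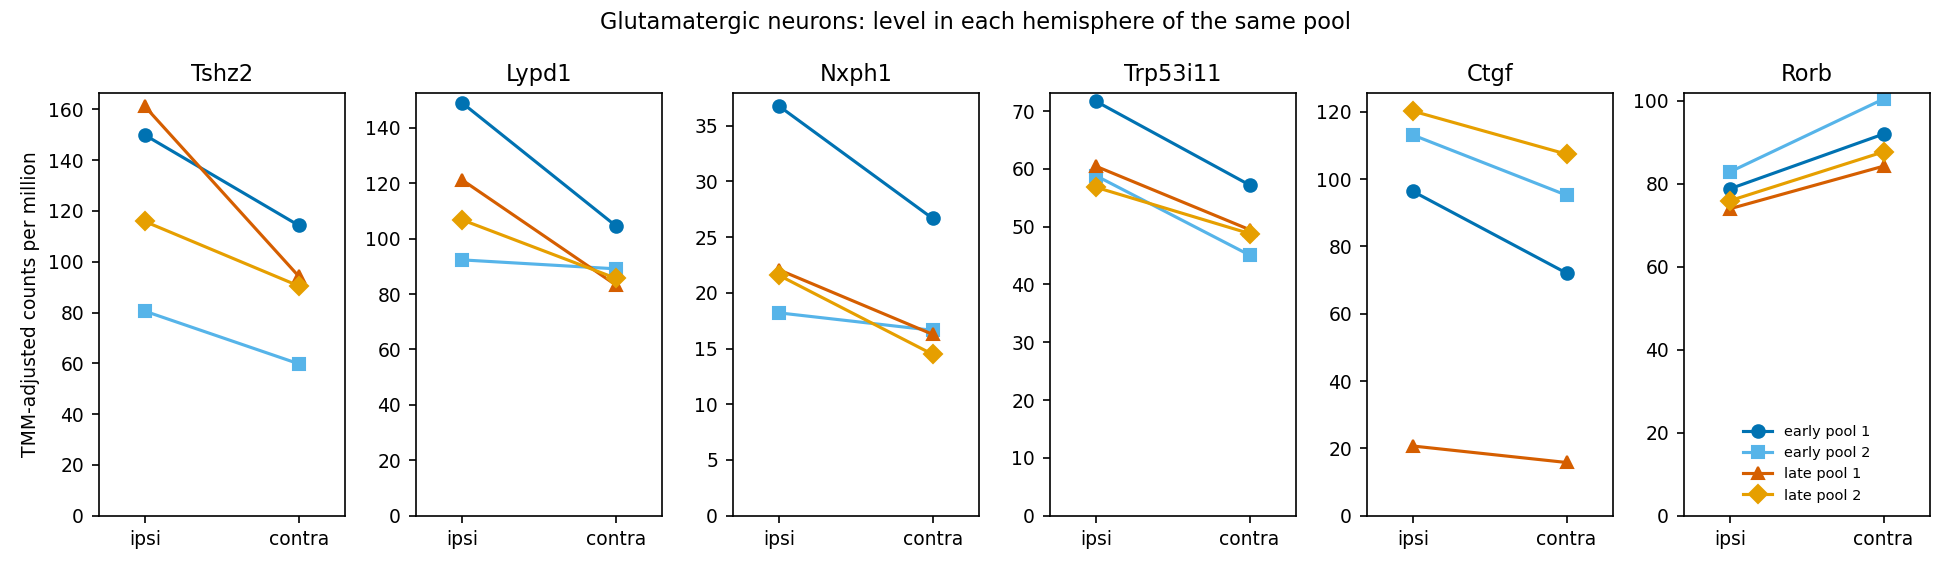
Levels of single genes in glutamatergic neurons, in TMM-adjusted CPM, with a line joining the ipsilateral and contralateral library of each of the 4 trained pools. Tshz2 falls along all 4 lines (161 to 94.3 CPM in late pool 1), and Rorb rises along all 4 (82.9 to 100.5 CPM in early pool 2).

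The other 4 near-projecting genes were not called. Of the 6 near-projecting genes tested, none was higher contralaterally and 2 were called lower, with a median log2 difference of -0.43. Over all genes the median was 4.71e-04, with 50.3% higher and 0.0301% called lower. The list was chosen with earlier results of these data known, and its 2 called members are Tshz2 and Lypd1, so it is not independent of those calls. Sla2, an adaptor protein, stood at -0.72 (edgeR adjusted p = 0.404), Trhr, the receptor of thyrotropin-releasing hormone, at -0.49, Vwc2l at -0.36 and Slc17a8, the vesicular glutamate transporter VGLUT3, at -0.30. Summed over the list, contralateral levels ranged from 165 to 241 CPM (median 196) and ipsilateral levels from 195 to 335 CPM (median 275), lower contralaterally in 4 of 4 pools.

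Of the 6 layer 6b genes none was higher contralaterally and 1, Ctgf, was called lower, with a median of -0.27. Over all genes 50.3% were higher and 0.0301% were called lower. Nxph3 stood at -0.24 (edgeR adjusted p = 0.116), Cplx3, a complexin that promotes vesicle release, at -0.30 and Nxph4 at -0.29. Of the 9 layer 6 corticothalamic genes 1 was higher and none was called, with a median of -0.15. Hs3st4, a heparan sulfate sulfotransferase, stood at -0.17 (edgeR adjusted p = 0.281) and Tle4, a corepressor, at -0.15. Nr4a2, an orphan nuclear receptor that is both an immediate early gene and a deep-layer marker, stood at -0.24 (edgeR adjusted p = 0.154) and was lower in all 4 pools. Without late pool 2 Nr4a2 (-0.29, edgeR adjusted p = 0.0257), Nxph3 (-0.29, 0.0124) and Hs3st4 (-0.22, 0.0336) were called, and Nxph3 was called in Rorb-positive cells (-0.69, 0.00897), 1 of 5 genes called there (0.0395%). The layer 5 extratelencephalic genes were split, with 5 of 9 higher and a median of 0.02; Bcl11b stood at -0.13 (edgeR adjusted p = 0.633).

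Rorb itself, on chromosome 19 (18930605 to 19111196, minus strand), stood at 92.0, 100.5, 84.3 and 87.7 CPM contralaterally and 78.8, 82.9, 74.0 and 75.9 CPM ipsilaterally. All 4 contralateral values lay above all 4 ipsilateral values, as for 46 genes (0.277% of those tested). The log2 difference was 0.22 (SE 0.0412) and the edgeR adjusted p of 0.0568 missed the threshold, which it passed with doublets kept (0.0417) and with a stricter cell filter (0.0352). With any 1 pool left out it was not called (0.21 to 0.24, edgeR adjusted p of 0.0523 to 0.664). Rorb was higher contralaterally in 7 of 8 mice and was not called with counts per mouse (edgeR adjusted p = 0.137), and in Foxp2-positive cells it stood at -0.19 (edgeR adjusted p = 0.979). Within Fezf2-positive cells alone it passed, at 0.57 (SE 0.102, edgeR adjusted p = 7.77e-04), 1 of 18 genes called among 13429 (0.134%). In that subset 11 genes were called lower (0.0819%), among them Tshz2 and Lypd1. Tshz2 stood at -0.42 (edgeR adjusted p = 2.80e-07) and Lypd1 at -0.36 (edgeR adjusted p = 1.03e-04), and 3 of the 11 genes called over all glutamatergic neurons were called again. Tshz2 was not called in Cux2-positive (-1.20, edgeR adjusted p = 0.103) or Rorb-positive cells (-0.62, edgeR adjusted p = 0.124). Lypd1 was not called in Cux2-, Rorb- or Foxp2-positive cells (-0.46 to -0.30, edgeR adjusted p of 0.290 to 0.371). Shares of Fezf2-positive cells with Rorb were 16.2% contralaterally and 14.1% ipsilaterally, higher in 3 of 4 pools.

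Other intratelencephalic genes gave no call over all glutamatergic neurons. Of the 8 layer 4/5 genes tested, Rorb included, 5 were higher contralaterally, with a median of 0.06. Of the 9 layer 2/3 genes 6 were higher, with a median of 0.01, beside 50.3% of all genes higher. Cux2 stood at 0.05 (edgeR adjusted p = 0.965), higher in 2 of 4 pools, so its share and its level did not lean alike. Lpl, lipoprotein lipase, was lower in all 4 pools (log2 -0.52, edgeR adjusted p = 0.163), and in Fezf2-positive cells alone it was called (-1.71, edgeR adjusted p = 0.0150). Fezf2 stood at -0.08 and Foxp2 at -0.12. Slc17a7, the vesicular transporter that defines the gate, stood at -0.04.

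**Figure D3:**
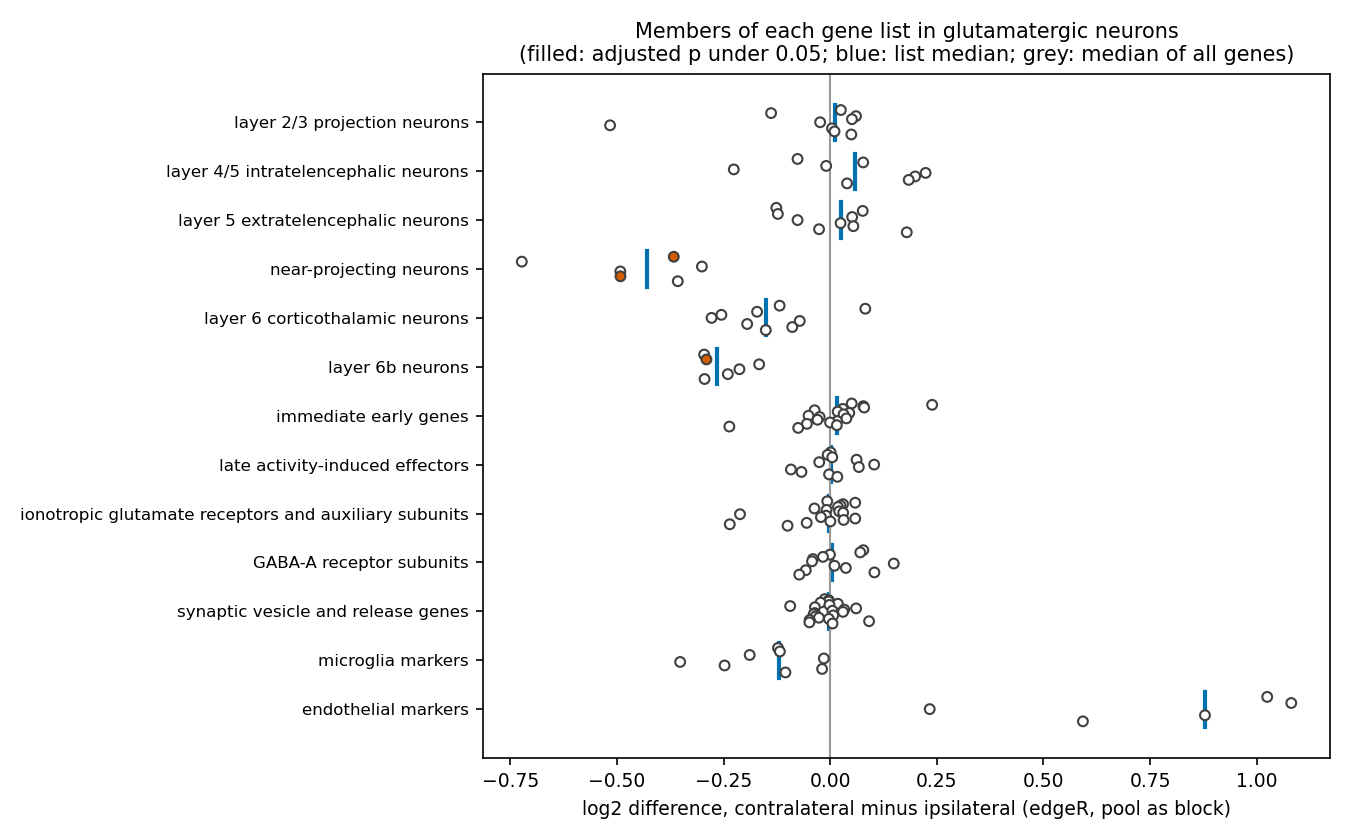
Log2 difference, contralateral minus ipsilateral, of each tested member of each gene list in glutamatergic neurons; filled points have an adjusted p under 0.05, blue bars are list medians and the grey line is the median of all genes. The near-projecting, layer 6b and microglia members lie below 0, with medians of -0.43, -0.27 and -0.12, and the endothelial members lie above 0.

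No gene of neuronal activity was called between the hemispheres over all glutamatergic neurons. Of 19 immediate early genes 11 were higher contralaterally and none was called, with a median of 0.02, beside 50.3% of all genes higher. Fos, the gene whose locus drives the Cre, stood at 0.03, Arc, a cytoskeletal protein of synaptic plasticity, at 0.05 (higher in 4 of 4 pools, as were 6.53% of all genes), Egr1 at 0.03 and Npas4 at -0.05, and none had an edgeR adjusted p below 0.937. In Cux2-positive cells alone Npas4 was called lower, at -0.29 (SE 0.0592, edgeR adjusted p = 0.0143), 1 of 19 genes called among 12528 (0.152%). Fos levels were 194, 173, 181 and 166 CPM contralaterally and 209.8, 175, 180.1 and 139 CPM ipsilaterally, with full overlap. Late activity-induced effectors were higher in 6 of 11, ionotropic glutamate receptor genes in 9 of 18, GABA-A receptor subunits in 6 of 12, postsynaptic density genes in 8 of 19 and synaptic vesicle genes in 8 of 22, with no call in any of these lists. Tissue was taken 3 days after labelling and digested before capture, so these levels are not those of the training session.

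The reporter had no common direction over the 4 pools in share or in level. The woodchuck element of the reporter transcript (wpre), a stretch downstream of the fluorescent protein, was found in 20.2% ± 7.50 of contralateral and 19.0% ± 7.58 of ipsilateral glutamatergic neurons, a difference of 1.20 ± 0.941 points (exact permutation p = 0.25, adjusted 0.375) and higher in 3 of 4 pools. Microglia-marked cells, at their lower depth, held it in 6.45% and 5.78%. Whether this is background or reporter in those cells was not tested. The tdTomato coding sequence was found in 0.444% and 0.364% of glutamatergic neurons and in 0.0913% and 0.128% of microglia-marked cells. The summed level of wpre differed by 0.13 on the log2 scale (edgeR adjusted p = 0.937), from -0.15 and -0.18 in the early pools and 0.56 and 0.23 in the late pools, and by -0.064 without late pool 1. The late difference minus the early one was 0.60 (SE 0.113, edgeR adjusted p = 0.285). The share of cells and the level did not lean alike: share differences were 1.90 and 1.44 points in the early pools and -0.187 and 1.63 in the late pools. The level of the Neo feature, found in 7.07% and 6.76% of neurons, differed by 0.01.

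The 6 genes higher contralaterally in glutamatergic neurons were Mal, Mog, Opalin, Ermn, Ptgds and Pdlim2. The first 4 are genes of myelin and oligodendrocytes and Ptgds, prostaglandin D2 synthase, is abundant in oligodendrocytes and meninges. Their UMIs lay in few cells. Mog, myelin oligodendrocyte glycoprotein, had 235 contralateral UMIs in 14 cells and 12 ipsilateral UMIs in 8, and 1 cell held 77.2% of those in early pool 1 and 76.4% of those in late pool 1. Its levels were 9.83, 0, 8.82 and 0.162 CPM contralaterally and 0.299, 0, 0.259 and 0.427 CPM ipsilaterally (log2 4.17, SE 0.504, edgeR adjusted p = 0.00263). Only both pools numbered 1 stood apart.

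Mal, a proteolipid of myelin, had 446 contralateral UMIs in 52 cells and 34 ipsilateral UMIs in 23, with a log2 difference of 3.65 (SE 0.306, edgeR adjusted p = 2.89e-05). Opalin had 158 UMIs in 15 cells against 9 in 4, and Ermn 59 in 12 against 3 in 3. Ptgds had 584 in 71 cells against 74 in 48, and 1 cell held 85.1% of its UMIs in the early pool 1 contralateral library, which had 477 of the 584. Without early pool 1 Ptgds stood at 0.78, against 2.72 with all pools, and was not called (edgeR adjusted p = 0.987). Cells with 2 or more genes of the myelin list carried 97.6% of the Mog UMIs, 95.2% of Opalin, 88.7% of Ermn, 82.8% of Ptgds and 78.3% of Mal, and they made up 10.5% of contralateral and 7.56% of ipsilateral glutamatergic neurons. With these cells removed Mal stood at 1.33 (edgeR adjusted p = 0.284) and Ptgds at -0.10, neither called, while Tshz2 (-0.50, edgeR adjusted p = 0.00735), Lypd1 and Trp53i11 remained among 7 called genes (0.0432% of 16194). Ctgf (-0.35, edgeR adjusted p = 0.0586) and Nxph1 (-0.41, edgeR adjusted p = 0.0591) were not called there.

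Pdlim2, a PDZ and LIM domain protein on chromosome 14 (70164218 to 70177681, minus strand), was the only one of the 6 higher contralaterally in all 4 pools, and its call was lost without early pool 1 or late pool 1 (edgeR adjusted p = 0.547 and 0.138). Its levels were low, 3.67, 1.26, 4.25 and 0.405 CPM contralaterally and 0.822, 0.467, 0.776 and 0.341 CPM ipsilaterally, from 116 UMIs in 47 cells against 28 in 24 (log2 1.96, SE 0.312, edgeR adjusted p = 0.0253). Myelin-carrying cells held 57.6% of its UMIs, and without them its difference was 1.05 (edgeR adjusted p = 0.908).

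Markers of other cell types beside the neuronal results were as follows. Over all genes tested in glutamatergic neurons, 50.3% were higher contralaterally and 0.0362% were called higher. All 7 myelin genes tested were higher there, with 1 called and a median of 0.96. Their summed level ranged from 73.6 to 401 CPM contralaterally (median 218) and from 88.8 to 164 CPM ipsilaterally (median 137), higher in 2 of 4 pools, with Mog at 0 in at least 1 library. All 5 endothelial genes were higher, none called, with a median of 0.88 and summed levels of 15.0 to 105 CPM against 5.63 to 44.9 CPM. Cldn5, at 1.02 (edgeR adjusted p = 0.0568), was called with counts per mouse (0.0112), with thinned sums (0.0385), with myelin gene carriers removed (0.0298), without late pool 1 (0.0022) and without late pool 2 (0.00459), and Flt1, at 1.08 (0.154), with counts per mouse (0.0298) and without late pool 1 (9.65e-06). Without early pool 1 neither was called (0.987 for both), and with at least 2 UMIs of Slc17a7 required Cldn5 stood at -0.0071 and Flt1 at -0.078. In the fit none of the 8 microglia genes was higher (median -0.12, none called). Their summed level was higher contralaterally in 2 of 4 pools, with 59.9 to 365 CPM against 65.3 to 514 CPM, and the 365 and 514 CPM are both of late pool 1. When every cell with 2 or more genes of a glial, endothelial or microglia list was removed, 37.9% of contralateral and 34.8% of ipsilateral glutamatergic neurons went, and with them 43.6% of the Tshz2 UMIs. Tshz2 then stood at -0.37 (SE 0.081, edgeR adjusted p = 0.126) and was not called. Lypd1 (-0.32, edgeR adjusted p = 0.144), Ctgf (-0.33, 0.0841) and Nxph1 (-0.20, 0.964) were not called either, while Trp53i11 was (-0.35, 0.0399), the 1 gene of the 11 that was called again among 5 (0.0344% of 14537).

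**Figure D4:**
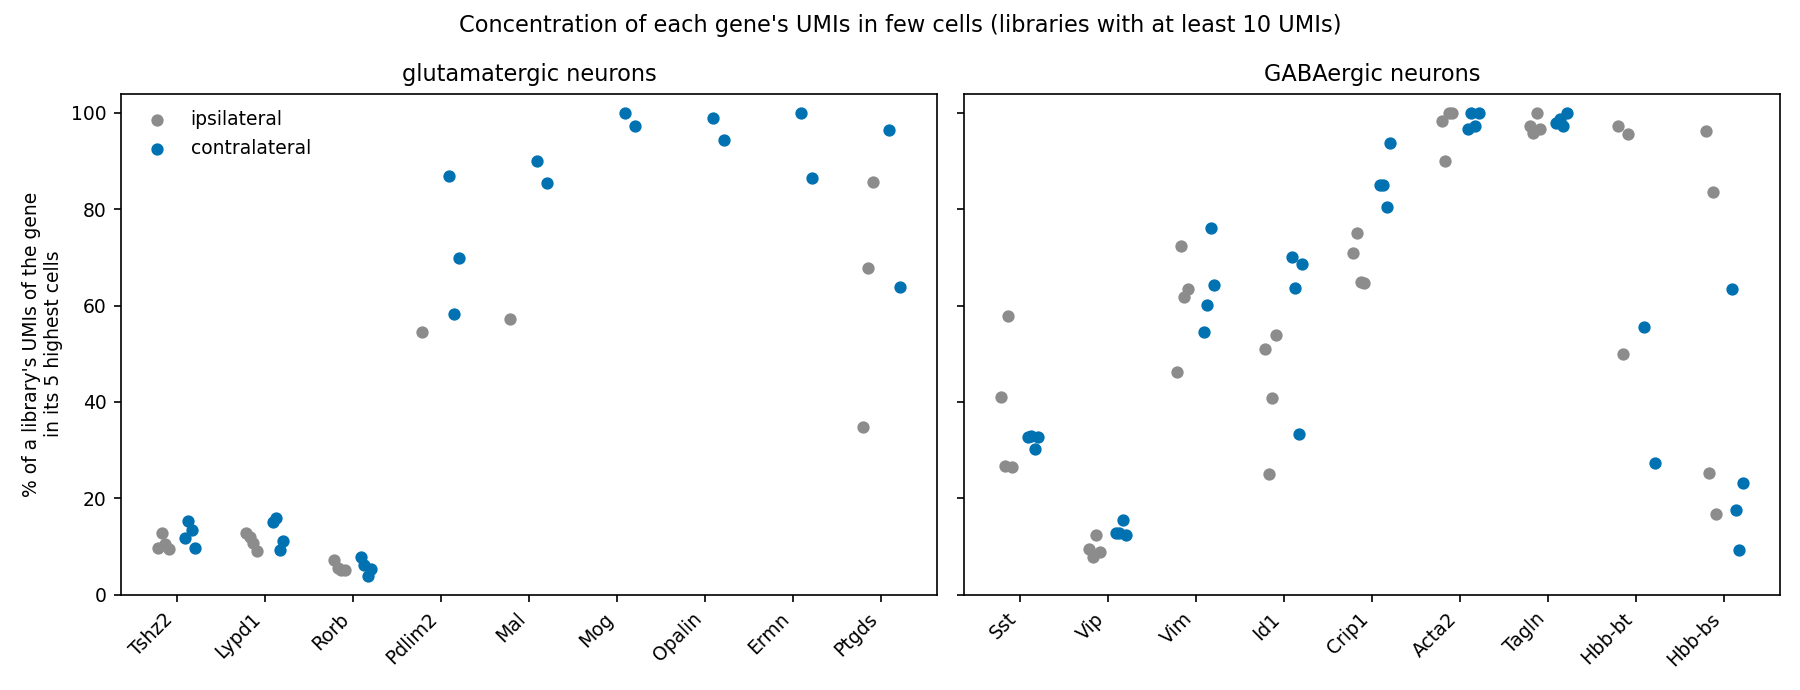
Percent of a library's UMIs of selected genes that lie in its 5 highest cells, for libraries with at least 10 UMIs of the gene, contralateral and ipsilateral, in glutamatergic and in GABAergic neurons. Mog, Opalin, Acta2 and Tagln lie near the top of the scale, whereas Tshz2, Lypd1 and Rorb lie near its bottom, with their UMIs spread over many cells.

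Whether the hemisphere difference changed with training was tested as the late difference minus the early difference. No gene of 16592 passed (0.0% called; 738 at an unadjusted p of 0.05; DESeq2 also called 0). This count rests on all 4 pools: leaving out 1 gave between 20 and 133 calls, the highest without late pool 1, from fits in which 1 stage had a single pair. Tshz2 stood at -0.41 in the early pools (edgeR adjusted p = 0.203) and -0.57 in the late pools (edgeR adjusted p = 0.0428), and the difference of the 2 was -0.16 (SE 0.115, edgeR adjusted p = 0.982). Fit by stage, 9 genes were called in the early pools (0.0542%), all higher contralaterally, and 4 in the late pools (0.0241%), all lower. The 4 late genes were Il1a, Il1b and Ctss, genes of myeloid cells, and Tshz2. They are named because they are few and were chosen after their values were seen.

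Among GABAergic neurons none of the 3 interneuron marker shares had a common direction over the 4 pools. Vip, a peptide of interneurons that inhibit other interneurons, was found in 28.9%, 35.0%, 29.9% and 33.5% of contralateral and 31.7%, 34.2%, 36.8% and 35.2% of ipsilateral cells, lower contralaterally in 3 of 4 pools (difference -2.66 ± 3.19 points, exact permutation p = 0.25, adjusted 0.583). Sst, a peptide of dendrite-targeting interneurons, was found in 12.95%, 13.5%, 16.3% and 9.35% contralaterally and 7.78%, 15.0%, 9.03% and 10.7% ipsilaterally. Its difference of 2.41 ± 4.51 points came from both pools numbered 1 and was reversed in the others (exact permutation p = 0.5, adjusted 0.729). Pvalb, a calcium buffer of fast-spiking interneurons, was found in 7.35% ± 2.84 and 6.87% ± 1.47 (exact permutation p = 0.625), with late pool 1 contralateral at 11.6% and the other contralateral libraries at 5.71% to 6.14%. Microglia-marked cells held Vip in 1.84% and 1.42%, Sst in 1.44% and 2.06% and Pvalb in 0.374% and 0.253%.

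The summed levels of the same 3 genes gave no call. Sst stood at 3121, 2482, 3274 and 2886 CPM contralaterally and 2041, 2894, 1773 and 2285 CPM ipsilaterally (log2 0.40, SE 0.105, edgeR adjusted p = 0.356), higher in 3 of 4 pools. Without early pool 2, the pool in which it was lower contralaterally, Sst stood at 0.61 and was called (edgeR adjusted p = 9.72e-05). Vip stood at -0.05 and Pvalb at 0.27, the latter from 604 and 355 CPM in late pool 1 against 47.9 to 148 CPM elsewhere. Of the Sst list 7 of 8 genes were higher contralaterally (median 0.18), of the Pvalb list 4 of 8, of the Vip list 3 of 8 and of the Lamp5 list 2 of 7 (median -0.09), with no member called. Tac1, a tachykinin, stood at 0.46 (edgeR adjusted p = 0.143) and, without early pool 2, at 0.61 and called (edgeR adjusted p = 0.00199). Cck, cholecystokinin, stood at 0.27 and higher in all 4 pools (edgeR adjusted p = 0.149), and Ndnf, of neurogliaform cells, at -0.33 and lower in all 4 pools, as were 6.45% of all genes (edgeR adjusted p = 0.149). Immediate early genes were higher in 18 of 19 with a median of 0.13 and none called, beside 52.0% of all genes and a median of 0.0053. Of the 19, 5 were higher in all 4 pools, as were 6.36% of all genes. Their summed level was lower contralaterally in late pool 1 (2630 against 2717 CPM) and higher in the other pools.

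In the fit over GABAergic neurons 11 of 13481 genes were called (0.0816%), 7 higher (0.0519%) and 4 lower (0.0297%) contralaterally, with 595 at an unadjusted p of 0.05 and 2 called by DESeq2. The 7 higher were Acta2, Tagln, Myl9, Id1, Vim, Crip1 and Cldn5 and the 4 lower were the hemoglobin genes Hbb-bt, Hbb-bs, Hba-a1 and Hba-a2. Acta2 (chromosome 19, 34241090 to 34255590, minus strand), Tagln and Myl9 encode contractile proteins of smooth muscle and mural cells, and Cldn5 is the tight-junction protein of brain endothelium. The Myl9 call was lost without early pool 1, early pool 2 or late pool 1 (edgeR adjusted p = 0.067, 0.0501 and 0.113) and the Cldn5 call without early pool 1 (0.65, edgeR adjusted p = 0.849). The count was 20 without early pool 2, and 17 without late pool 1 or without late pool 2.

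Acta2 stood at 70.2, 41.1, 44.6 and 20.5 CPM contralaterally and 23.2, 7.17, 11.1 and 7.74 CPM ipsilaterally (log2 1.81, SE 0.145, edgeR adjusted p = 3.55e-06). Tagln stood at 52.1, 33.7, 43.4 and 13.3 CPM against 13.7, 8.61, 10.3 and 10.7 CPM (log2 1.72, SE 0.188, edgeR adjusted p = 1.13e-04). In both genes the groups overlapped only through late pool 2 contralateral. Acta2 UMIs numbered 555 in 28 contralateral cells and 190 in 23 ipsilateral cells, and Tagln UMIs 441 in 29 and 150 in 24, so the difference lies in few cells with many molecules. With the 2 mice of each pool counted apart neither was called (edgeR adjusted p = 0.262 and 0.312).

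Id1, an inhibitor of basic helix-loop-helix factors and a target of BMP signalling, was read from more cells, with 319 UMIs in 121 contralateral cells and 166 in 108 ipsilateral cells. It stood at 29.4, 31.7, 18.4 and 33.3 CPM against 10.5, 11.5, 11.1 and 19.2 CPM (log2 1.16, SE 0.157, edgeR adjusted p = 0.00177), with 1 ipsilateral value, late pool 2, above the lowest contralateral one. Vim, the intermediate filament vimentin, stood at 55.6, 50.6, 27.4 and 20.0 CPM against 22.6, 33.7, 14.0 and 11.1 CPM (log2 0.97, SE 0.131, edgeR adjusted p = 0.00177), and Crip1 at 30.8, 16.5, 50.4 and 7.62 CPM against 13.7, 10.0, 15.2 and 6.27 CPM (log2 1.16, SE 0.177, edgeR adjusted p = 0.00767). Without early pool 1 none of the 3 was called (edgeR adjusted p = 0.067, 0.163 and 0.163), and Crip1 was also lost without late pool 1 (0.113). Vim and Crip1 were not called with counts per mouse (edgeR adjusted p = 0.228 and 0.306), nor was Id1 with the stricter cell filter (edgeR adjusted p = 0.164). With cells carrying glial or endothelial genes removed, 9 of 11902 genes were called (0.0756%), all of them among the 11 called before: the 4 hemoglobin genes, Acta2, Tagln, Myl9, Vim and Crip1. Id1 stood at 0.35 and was not called (edgeR adjusted p = 0.998), and Cldn5 did not pass the filter on low counts. The cells removed held 7.38% of the Acta2 and 8.29% of the Tagln UMIs. The lists used for the removal hold no gene of smooth muscle, mural or red blood cells. The removal therefore does not test whether such cells lie in the gate.

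Hbb-bt, a beta globin of red blood cells, stood at 6.25, 2.88, 9.01 and 2.38 CPM contralaterally and 68.7, 4.30, 101 and 2.58 CPM ipsilaterally (log2 -3.12, SE 0.263, edgeR adjusted p = 4.25e-06). A single cell held 96.1% of its UMIs in early pool 1 ipsilateral and 93.5% in late pool 1 ipsilateral. Globin genes share near-identical copies, so the split between Hbb-bt and Hbb-bs and between Hba-a1 and Hba-a2 is uncertain. With doublets kept, or with a stricter cell filter (1000 genes, 2000 UMIs and 10% mitochondrial UMIs), no gene was called lower, and without late pool 1 Hba-a1 (-0.90, edgeR adjusted p = 0.113) and Hba-a2 (-0.92, 0.312) were not called. The 4 endothelial genes tested were all higher contralaterally (median 0.94), with summed levels of 28.3 to 147 CPM against 38.2 to 62.3 CPM and higher in 3 of 4 pools. In the fit, 7 of 7 myelin genes (median 0.50) and 8 of 8 microglia genes (median 0.25) were higher, none called. Their summed levels were higher in 2 of 4 pools each, with 58.4 to 611 CPM against 69.3 to 765 CPM for myelin genes and 148 to 1041 CPM against 183 to 1059 CPM for microglia genes. The 6 astrocyte genes (median 0.19) and the 5 oligodendrocyte precursor genes (median 0.09) tested were also all higher, none called, beside 52.0% of all genes. With at least 2 UMIs of Gad1 or Gad2 required, no gene was called (608 at an unadjusted p of 0.05).

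By class, the share of cells that were glutamatergic neurons was 35.0% ± 8.58 contralaterally and 33.4% ± 10.8 ipsilaterally, and that of GABAergic neurons 10.8% ± 2.44 and 12.4% ± 3.65, with no common direction over pools (exact permutation p = 0.375 and 0.25). Taken as a share of both kinds of neuron, GABAergic neurons made up 30.2%, 23.8%, 22.1% and 19.4% contralaterally and 32.8%, 27.7%, 25.8% and 22.9% ipsilaterally. The contralateral library was lower in each pool, with differences of -3.93 to -2.62 points and a mean of -3.43 ± 0.576. This ratio was formed after the class shares were seen and has no test. In the untrained pairs it was higher on the right by 7.51 and 3.15 points.

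Endothelial-marked cells were a larger share contralaterally in all 4 pools: 11.4%, 4.04%, 2.87% and 3.70% against 7.50%, 2.00%, 1.97% and 3.30%, a difference of 1.81 ± 1.54 points (exact permutation p = 0.125, adjusted 0.562). Microglia-marked cells made up 20.3% and 24.1%, with contralateral minus ipsilateral at -11.3 points in late pool 1 and 1.26 in early pool 2. Astrocyte-marked cells made up 5.99% and 4.92%, oligodendrocyte-marked cells 2.18% and 1.56% and oligodendrocyte precursors 10.9% and 11.3%, none with a common direction. The summed endothelial genes read in each neuron gate were higher contralaterally in 3 of 4 pools. In late pool 1 they were lower contralaterally, at 19.8 against 21.9 CPM in glutamatergic and 28.3 against 38.2 CPM in GABAergic neurons.

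**Figure D5:**
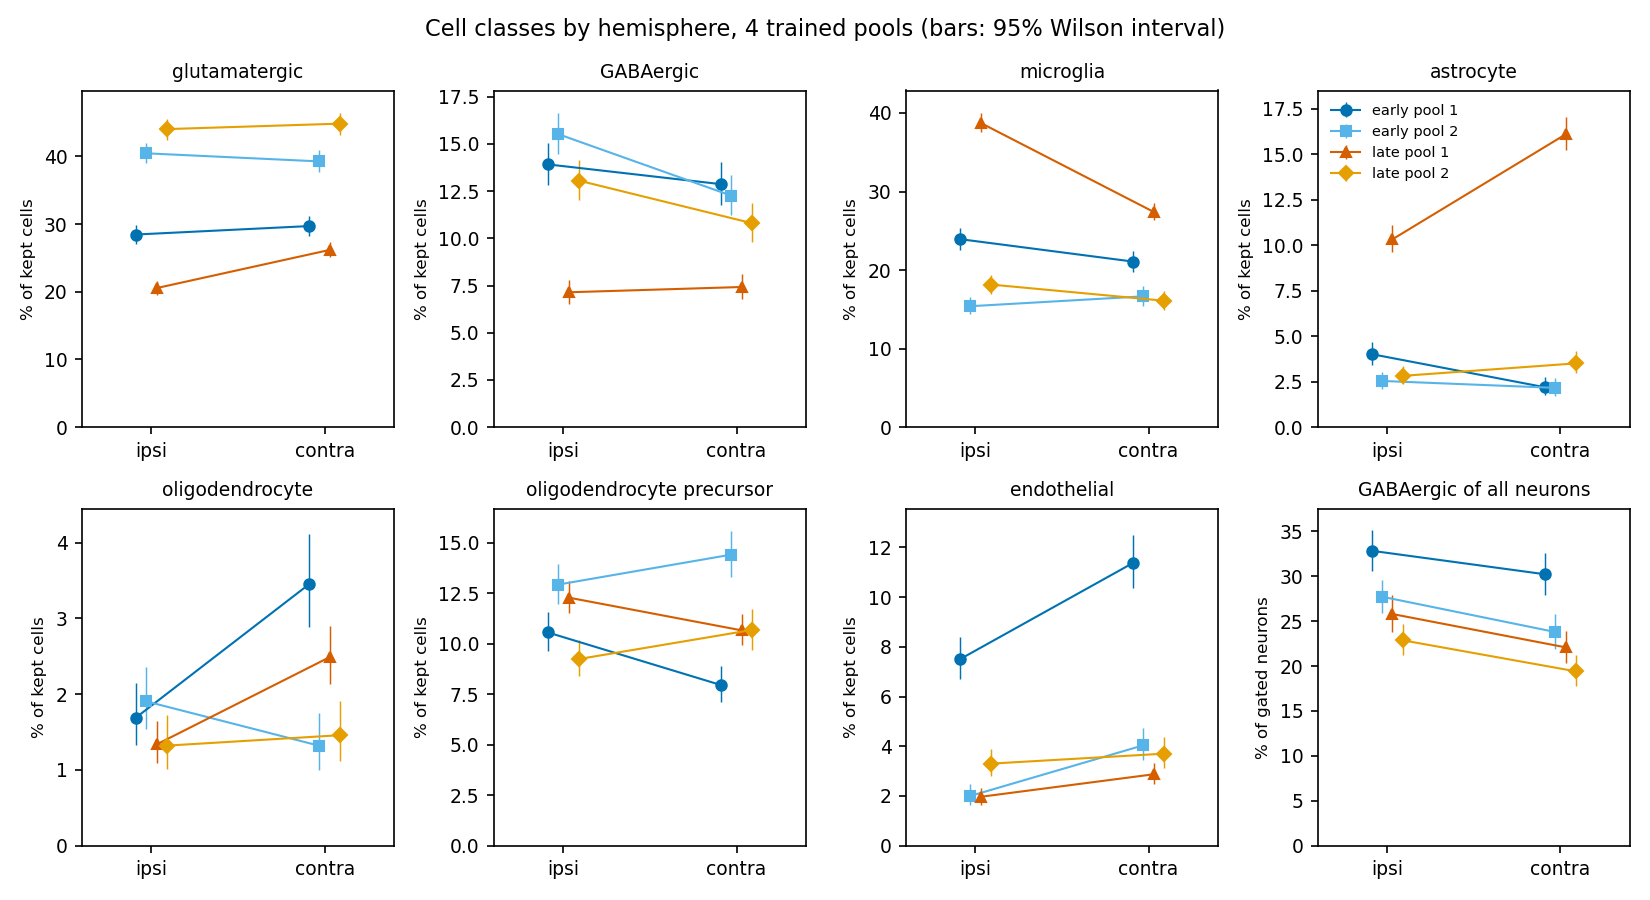
Share of cells by class in the contralateral and ipsilateral library of each trained pool, in percent, with 95% Wilson intervals. The endothelial lines rise in all 4 pools, from 7.50% to 11.4% in early pool 1, and late pool 1 departs from the other pools in microglia-marked and astrocyte-marked cells.

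Right against left in the untrained pools, fitted with the trained libraries for a shared spread, called 2 of 16869 genes (0.0119%; 1382 at an unadjusted p of 0.05): Xist, whose cells lay on the right in untrained pool 2, and Tshz2. Tshz2 stood at log2 CPM 6.56 on the right and 5.59 on the left in untrained pool 1, and 6.77 and 6.01 in untrained pool 2. Rorb stood at -0.11 and was not called. Side and mouse cannot be told apart in untrained pool 2, so neither call measures a difference between sides alone. Untrained pool 1 left gave 229 glutamatergic neurons, and leaving out either untrained pool raised the count of calls to 52 or more.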

How the data were processed

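The deposited files are gene by cell matrices of whole-number UMI counts, made by the authors with Cell Ranger 3.1.0 against GRCm38/mm10, per the submitters' processing notes; the matrix headers give software version 3.0.2. The libraries are 10x 3' libraries of kit v2 or v3, and which kit each had is not given in the sources used here. Barcodes under 500 genes or 1000 UMIs, or above 20% mitochondrial UMIs, were dropped. The highest Scrublet doublet scores (scanpy 1.11.5) were removed at 0.8% per 1000 barcodes. Neurons were gated on raw UMIs, and other classes needed 2 genes and 2 UMIs of their list. UMIs were summed per library and gate and tested with edgeR 4.0.16 (quasi-likelihood, TMM, filterByExpr, Benjamini-Hochberg at 0.05) with the pool as a block; DESeq2 1.42.0 was an alternative. SE is the log2 difference divided by the square root of F. Shares were compared with exact sign-flip tests over 4 pools, and their intervals are 95% Wilson intervals; intervals and limits for a share of 0 (3 counts) cover counting error only. Pairing comes from the labels, which name the same 2 mice for both hemispheres. Same-pool libraries deviated together (correlations 0.433 to 0.824 in glutamatergic neurons, -0.578 to 0.340 between pools). Both hemispheres of a pool share a batch label, and the labels do not say whether their libraries were prepared together; late pool 1 shares its batch label with untrained pool 1, and early pool 1 with untrained pool 2.

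Named genes were every called gene (full values for up to 6 with 1 direction in all 4 pools), a fixed set of markers, activity genes and reporter features, and up to 4 members of a list by p. Members and lists were chosen with earlier results of these data known. Positions are from the GENCODE annotation of GRCm38. The fitting scripts were tested on simulated counts with 200 genes, drawn above a minimum level, changed by a log2 of 0.25, 0.5 or 1. In glutamatergic neurons 47%, 99% and 100% of them were recovered, with 12, 13 and 23 false calls. In GABAergic neurons 1%, 65% and 98% were recovered, with 0, 11 and 22 false calls. Alternatives were size factors, filters, gates, subsets, thinning, counts per mouse, the replicate block and each pool left out. Striatal libraries were not used here. No sequence is shown, since none carries these results.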

Additional observations from a re-analysis of the deposited data

Results flagged for a closer look

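Of 110 sets of 4 libraries checked, 6 had 1 library far from the other 3, and chance marks about 1 set in 20. Late pool 1 contralateral stood apart in 3 of them: the Pvalb share of GABAergic neurons was 11.6% (others 5.71% to 6.14%), the Pvalb level was 604 CPM (others 63.5 to 114 CPM), and astrocyte-marked cells made up 16.1% of cells (others 2.16% to 3.51%). In early pool 1 contralateral, endothelial-marked cells made up 11.4% (others 2.87% to 4.04%). In GABAergic neurons Id1 stood at 19.2 CPM in late pool 2 ipsilateral (others 10.5 to 11.5 CPM). In glutamatergic neurons Ermn stood at 0.259 CPM in late pool 1 ipsilateral and is listed at 0 in the other ipsilateral libraries.

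The share of astrocyte-marked cells moved in opposite directions at the 2 stages: contralateral minus ipsilateral was -1.82 and -0.380 points in the early pools and 5.77 and 0.687 points in the late pools. The late mean exceeded the early mean by 4.33 points, and this difference between stages was not tested.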

How the results depend on the processing

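The count of genes called in glutamatergic neurons (11) was 1 with DESeq2, 1 with 12 libraries in the fit (an alternative added after seeing the data), 25 with doublets kept, 97 with no filter on low counts, 5 with glial and endothelial gene carriers removed and 7 with myelin gene carriers removed (added after seeing the data). It was 19 in Cux2-positive, 18 in Fezf2-positive, 2 in Foxp2-positive and 5 in Rorb-positive cells. The count in GABAergic neurons (11) was 2 with DESeq2, 2 with counts per mouse, 5 with the stricter cell filter, 74 with no filter, and 9 with glial and endothelial gene carriers removed and 0 with a gate of 2 UMIs (both added after seeing the data). Without the replicate block, which ignores that the hemispheres come from the same mice, 0 genes were called in glutamatergic neurons (47 at an unadjusted p of 0.05) and 0 in GABAergic neurons (70). With no filter the stage difference (0) gave 65 calls and the untrained comparison (2) gave 298. With 1 pool left out the counts ranged from 1 to 27, from 9 to 20, from 20 to 133 and from 52 to 672 in the same order. The cause of these changes was not tested.

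Some differences in share changed direction. With 1 pool left out the range was -1.59 to 1.57 points for Fezf2, -2.26 to 0.210 for Foxp2, -0.283 to 1.14 for Pvalb, -0.504 to 2.02 for astrocyte-marked cells and -0.930 to 0.434 for oligodendrocyte precursors. With doublets kept Fezf2 was 0.125; at 2 UMIs Foxp2 was 0.218 and tdTomato -0.0184; after thinning tdTomato was -0.0156 and Neo -0.320; with the stricter filter astrocyte-marked cells were -0.249 and precursors 1.12. Rorb and Cux2 shares kept their direction with any 1 pool left out (2.56 to 4.12 and 1.15 to 2.60 points).

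Among the genes named, 37 values changed direction, 135 lost a call, 32 gained one and 687 did neither. In Cux2-positive cells the log2 difference was 1.67 for Ctgf and 1.42 for Cplx3, both called in this opposite direction (edgeR adjusted p = 0.0425 and 5.24e-04), 0.19 for Hs3st4, -0.067 for Cux2, -0.039 for Fos, -0.052 for Arc, -0.052 for Egr1, -0.11 for wpre and -0.43 for Neo. In Rorb-positive cells it was -0.00723 for Cux2, -0.048 for Rorb, -0.044 for Fos, -0.00756 for Arc, -0.011 for Egr1, -0.18 for Neo and 0.049 for Cplx3. In Foxp2-positive cells it was -0.19 for Rorb, 0.069 for Npas4 and 0.0058 for Slc17a7, and in Fezf2-positive cells 0.067 for Npas4. With glial and endothelial gene carriers removed it was -0.022 for Fos, -0.12 for Neo and 0.18 for Vip, and with myelin gene carriers removed -0.096 for Ptgds. At a gate of 2 UMIs Cldn5 and Flt1 in glutamatergic neurons were -0.0071 and -0.078. Neo was -0.0034 per mouse, -0.00052 without the replicate block, -0.0038 with the stricter filter and -0.017 with thinned sums. With 1 pool left out Cux2 ranged from -0.011 to 0.11, wpre from -0.064 to 0.23, Vip from -0.13 to 0.070, Fos from -0.040 to 0.080, Neo from -0.040 to 0.081 and Xist in the untrained pools from -1.64 to 13.26. None of these genes was called in the comparison itself except Ctgf, Ptgds, Xist and, in GABAergic neurons only, Cldn5. The GABAergic sums rest on 385 to 660 cells per trained library.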

Other observations

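Lists that belong to no comparison above gave no call in glutamatergic neurons, where 50.3% of all genes were higher contralaterally. Of 12 heat shock and dissociation genes 5 were higher contralaterally (median log2 difference -0.0030), of 13 mitochondrial genome genes 8 (0.013), of 8 spiny projection neuron markers, which would mark striatal tissue, 1 (-0.024), of 6 astrocyte markers 3 (0.059) and of 5 oligodendrocyte precursor markers 2 (-1.82e-04). Of 5 sex-linked genes, which follow the mix of M and F cells, 3 were higher (0.014). Xist stood at 0.16 (higher in 3 pools), Uty at 0.095, Kdm5d at 0.014, Eif2s3y at -0.0084 and Ddx3y at -0.21 (higher in 0 pools).

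In Fezf2-positive glutamatergic neurons alone, 3 of the 6 near-projecting genes were called lower contralaterally by edgeR, beside 11 of all 13429 genes (0.0819%): Tshz2, Lypd1 and Sla2, the last at -0.84 (adjusted p = 0.0150). The other calls there are named after their values were seen. Kcnip1, an accessory subunit of A-type potassium channels, stood at -0.97 (edgeR adjusted p = 6.04e-05), and Ptn, the growth factor pleiotrophin, at 0.26 (edgeR adjusted p = 0.00533). Among the other called genes Ccl3 stood at -0.94, Ccl4 at -0.82, Ctss at -1.16, Hba-a1 at -1.46, Hba-a2 at -1.49 and Ighm, an immunoglobulin heavy chain gene, at 0.27.

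The genes called in the early pools alone, also named after their values were seen, included Mal, Ptgds and Opalin, the endothelial genes Ly6c1 and Ly6a at 1.503 and 1.49, the interferon-induced genes Isg15 and Ifit1 at 1.83 and 4.25, Apod at 2.42 and Xist at 0.35.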
